A study of Mus musculus with 45 samples.

Results

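The erythropoietin receptor gene Epor, the shared and alpha chains of the interleukin-3 and GM-CSF receptors (Csf2rb, Csf2rb2, Csf2ra and Il3ra), the stem cell factor receptor Kit, the kinase Jak2 and the transcription factors Stat5a and Stat5b were examined in erythroblasts with and without Stag2. These 9 genes were taken by name from the 24333 genes of a table of gene scores, by a rule that uses no measured value, although earlier results of these data were known when the list was made. A gene score sums the chromatin accessibility (ATAC) signal in and around a gene in 1 nucleus, and it measures accessibility and not expression.

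The series compared mice with intact Stag2 (WT) and mice in which Stag2, a cohesin subunit gene, was deleted (KO). Both genotypes had received pIpC, the inducer of the deletion, and cells were taken 6 to 8 weeks after it. Of 45 samples, 6 were analysed, namely the ATAC libraries of Ter119+ erythroblast nuclei made with the 10x multiome chemistry, 3 from WT and 3 from KO. The other samples were not analysed here. The labels used here name neither the driver of the Cre recombinase nor the number of animals behind a library, so the p-values measure the spread between these libraries, which may be technical in part.

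Erythropoietin binds a pair of EPOR chains at the surface of red cell progenitors. JAK2, which is attached to the receptor tails, then phosphorylates the receptor and STAT5, and STAT5 enters the nucleus to switch on survival and iron uptake genes. KIT carries its own kinase and acts with EPOR in early progenitors, and it is lost as erythroblasts mature. CSF2RB is the beta chain that IL-3, IL-5 and GM-CSF receptors share, CSF2RB2 is another beta chain that mice use for IL-3 alone, and IL3RA and CSF2RA are the alpha chains that recognise IL-3 and GM-CSF. These chains also signal through JAK2 and STAT5 and are best known from myeloid cells and early progenitors.

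The libraries held 4617 to 6990 nuclei each, with a median of 7122.5 to 8874 ATAC fragments per nucleus. The authors assigned the nuclei to 3 classes, Early, Int and Late, and to 11 clusters, by rules that the sources used here do not give. All scores below are means over the nuclei of a library, scaled so that its genes sum to 1000000. The score of Stag2 was 64.2 to 65.9 in the WT and 61.0 to 65.1 in the KO libraries, which overlap, and a deleted exon need not change this sum, so it is no check of the deletion. Of the nuclei, 4.34% carried a barcode sequence that also occurred in another library. Of 12 erythroid marker genes, 11 were in the table and all had scores above the filter, with summed scores of 2002 to 2108 in the WT and 1772 to 1873 in the KO libraries.

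In KO erythroblasts both beta chain genes had higher and Epor had lower accessibility, and Kit was higher in Late nuclei, a call that ended under quantile normalization and cyclic loess. Jak2, Stat5a and Stat5b did not pass the test in all, Int or Late nuclei, and Early nuclei were not tested. Jak2 did pass under median centring and Late Stat5a under quantile normalization. Over all nuclei, 8 of the 9 members passed a filter at a mean score of 5, and 2 were higher and 1 was lower in KO (limma with Benjamini-Hochberg adjustment over all genes tested, adjusted p under 0.05). Of the 17682 genes tested, 29.1% were higher and 14.2% were lower, or 43.3% in either direction, so a count of 3 of 8 is close to the share of all genes. For 4 of the 8 members the values of the genotypes stood fully apart, beside 55.4% of genes. In Int nuclei 1 of 8 members was higher and 1 was lower, beside 12.7% and 7.1% of 19465 genes (19.8% in all), and 4 did not overlap, beside 37.3%. In Late nuclei 3 of 7 were higher and 1 was lower, beside 32.9% and 18.5% of 15886 genes (51.4% in all), and 5 did not overlap, beside 59.5%. The split of all genes depends on the scaling. Of the genes called, 67.1% were higher over all nuclei, 64.2% in Int and 64.0% in Late nuclei, which became 46.9%, 50.7% and 46.5% under quantile normalization, 54.0%, 57.5% and 52.5% under cyclic loess, and 35.4%, 24.4% and 47.9% under median centring. Median centring also moved the median of all genes from 0.096 to -0.050 over all nuclei and from 0.057 to -0.12 in Int nuclei. The calls of Epor, Csf2rb and Csf2rb2 over all and Late nuclei held under each of these scalings. The median log2 change of the members tested was 0.14 in all, 0.060 in Int and 0.073 in Late nuclei, beside 0.096, 0.057 and 0.052 for all genes tested. The 2 beta chain genes were near the top of the table by size of change. Over all nuclei Csf2rb2 ranked 59th and Csf2rb 152nd from the highest log2 change among the 17682 genes.

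**Figure D1:**
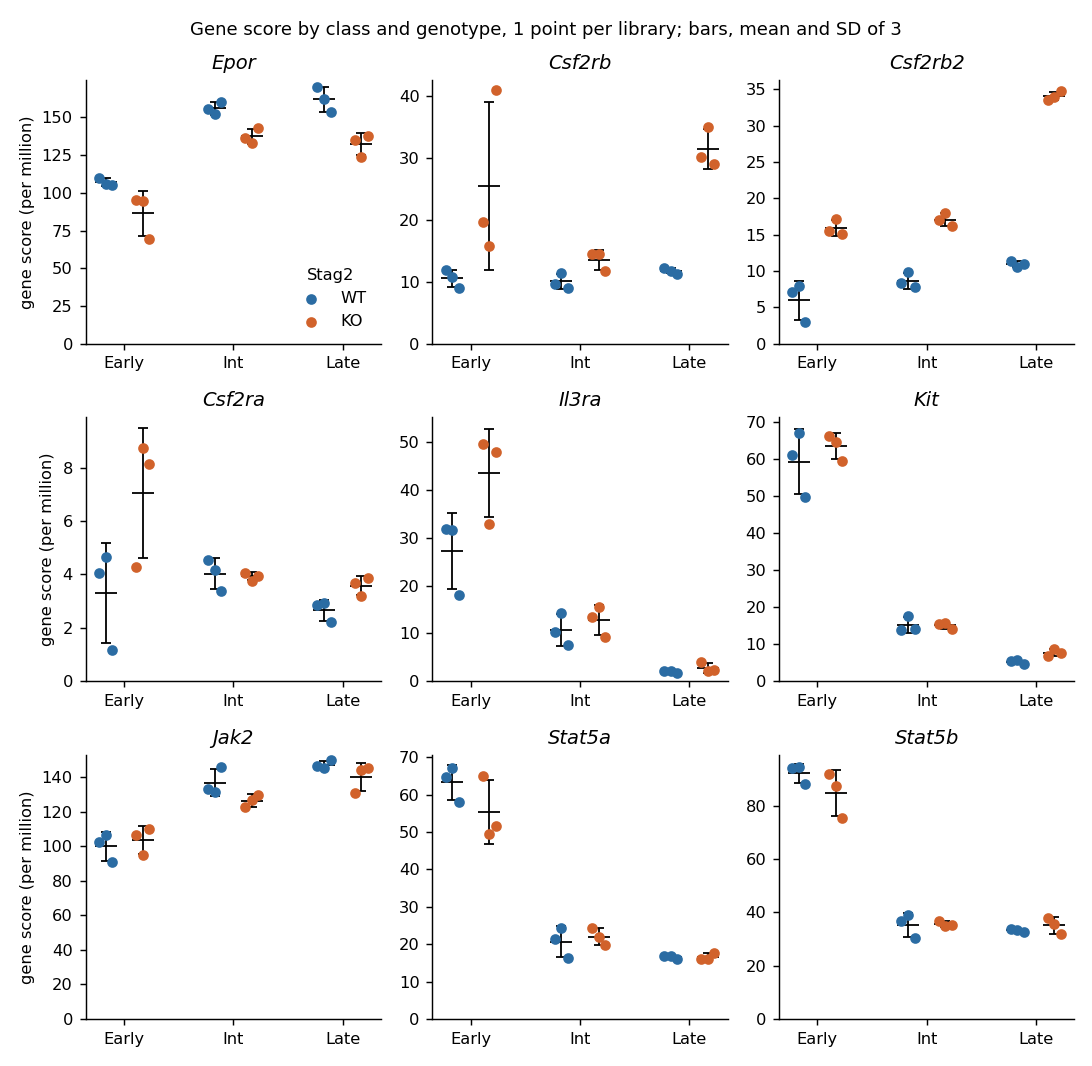
Gene score, scaled to a sum of 1000000 (vertical axes, each starting at 0), of the 9 members in Early, Int and Late nuclei, with 1 point per library (WT blue, KO orange) and the mean and SD of 3 libraries. In Late nuclei the KO points of Csf2rb (29.0 to 35.0) and Csf2rb2 (33.6 to 34.7) lie far above the WT points (11.3 to 12.2 and 10.5 to 11.4), and those of Epor lie below; Early values of WT replicate 3 and of KO replicates 2 and 3 rest on 16 to 25 nuclei.

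The promoters of the members whose accessibility changed are shown because their letters differ in the words that erythroid and cytokine factors bind. They were read from a set of RefSeq promoters (GRCm38.p6). It had an entry within 10 bases of the start in the gene-score table for 7 of the 9 members, not for Csf2rb and Stat5a. The RefSeq gene starts of Csf2rb (78325800) and Stat5a (100859351) do lie that near, so the gap is in the set of promoters used. Each line gives the 250 bases before the start on the gene's own strand, 5′ to 3′, for Epor (chr9:21963577-21963826), Csf2rb2 (chr15:78305722-78305971) and Kit (chr5:75574737-75574986). Capitals mark matches on either strand to AGATAA or TGATAA, the letters GATA factors bind, TTCNNNGAA, the letters STAT factors bind, and CCNCNCCC, the letters Kruppel-like factors bind.
Epor: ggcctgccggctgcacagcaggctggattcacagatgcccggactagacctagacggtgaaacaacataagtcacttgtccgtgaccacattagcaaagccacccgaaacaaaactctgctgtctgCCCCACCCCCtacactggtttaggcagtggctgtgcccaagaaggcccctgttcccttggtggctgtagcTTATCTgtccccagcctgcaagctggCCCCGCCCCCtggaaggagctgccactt
Csf2rb2: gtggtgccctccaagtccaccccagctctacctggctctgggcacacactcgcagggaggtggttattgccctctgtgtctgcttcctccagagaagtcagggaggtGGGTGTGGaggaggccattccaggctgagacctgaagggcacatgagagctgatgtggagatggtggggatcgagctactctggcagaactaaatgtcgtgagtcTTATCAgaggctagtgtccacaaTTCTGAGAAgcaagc
Kit: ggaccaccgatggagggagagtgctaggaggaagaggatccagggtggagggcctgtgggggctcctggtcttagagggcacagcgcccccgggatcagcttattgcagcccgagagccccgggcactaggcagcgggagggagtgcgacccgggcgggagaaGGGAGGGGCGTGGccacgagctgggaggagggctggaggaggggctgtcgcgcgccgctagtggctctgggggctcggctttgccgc

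The Epor promoter held AGATAA on the reverse strand (printed as TTATCT), 54 to 49 bases before the start, and 4 matches to CCNCNCCC in 2 overlapping pairs. The Csf2rb2 promoter held TGATAA on the reverse strand (printed as TTATCA), 38 to 33 bases before the start, and TTCTGAGAA 15 to 7 bases before it, with 1 match to CCNCNCCC. The Kit promoter held 2 overlapping matches to CCNCNCCC and neither of the other words. Of 15231 mouse promoters of the same length, 9.16% held AGATAA, 6.95% TGATAA, 14.9% either of these, 6.93% TTCNNNGAA and 52.3% CCNCNCCC. Among the 7 members with an entry, Epor and Csf2rb2 held AGATAA or TGATAA and Csf2rb2 held the STAT word. Other GATA words were not searched, and the Il3ra promoter held the related AGATAG on the reverse strand (as CTATCT). These words therefore do not set the changed members apart. All 7 held CCNCNCCC, also Csf2ra, Il3ra, Jak2 and Stat5b, so this word does not set the printed promoters apart. A match is a description of letters and not a bound site.

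Epor (chromosome 9, 21958899 to 21963576, minus strand, mm10 as are all positions) scored 164, 155 and 157 in the WT libraries, in order of replicate here and below, and 133, 128 and 139.9 in the KO libraries over all nuclei. All KO libraries lay below all WT libraries. The score of Epor fell by 15.9% (log2 change -0.25, SE 0.044, limma adjusted p = 0.000322). In Late nuclei the scores were 169.8, 162 and 154 in WT and 135, 124 and 138 in KO, again with no overlap. The Late change was -0.29 on the log2 scale (SE 0.050, adjusted p = 0.00034). In Int nuclei the scores were 155, 152 and 160.2 in WT and 136, 133 and 143 in KO, a change of -0.18 (SE 0.048, adjusted p = 0.00736). The Int call was lost without KO replicate 2 (-0.16, adjusted p = 0.0616) and without a variance trend (adjusted p = 0.0998), as well as among the Int nuclei of cluster C5 alone (-0.061, adjusted p = 0.872). The difference between the Late and the Int effect was -0.11 (SE 0.067, adjusted p = 0.455), so the effect was not shown to differ between the classes.

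Genes with high scores were lower in KO more often than others. In Late nuclei 32.8% of the 3972 genes with the highest scores, among them Epor and Jak2, were lower, and their median log2 change was -0.062. The erythroid markers moved with Epor. Of the 11 erythroid markers tested in Late nuclei, 10 were lower in KO, and their summed score was 2127 to 2166 in WT and 1855 to 1876 in KO. In Late nuclei the share of fragments in peaks was also lower in the KO libraries, with medians of 64.1% to 66.4% per WT library and 60.3% to 61.8% per KO library. These medians overlapped in Int nuclei, at 55.3% to 61.9% in WT and 55.1% to 56.2% in KO. The median fragments per nucleus did not overlap in Int nuclei, at 10121 to 12877 in WT and 13911 to 14998 in KO. The part of these measures in the Epor result was not tested. In Late nuclei matched between the libraries on their number of fragments, the Epor change was -0.26 (adjusted p = 0.00127). The Int call of Epor also held in matched nuclei.

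Of the 7 genes tested in Late nuclei that start within 100 kb of Epor, 2 were lower and 5 missed the threshold, beside 18.5% of all genes lower. The 2 were Swsap1 and Gm45914, the nearest tested genes, with Late changes of -0.10 (limma adjusted p = 0.0392) and -0.11 (adjusted p = 0.0225). They start at -7.82 and -7.57 kb from the Epor start along the chromosome, so they may share signal and are not separate observations. Neither passed over all nuclei. Rab3d, a small GTPase gene of secretion, was higher over all nuclei (0.42, adjusted p = 0.00475) and in Int nuclei (0.44, adjusted p = 0.0344), and it was under the filter in Late nuclei.

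Epor also differed among clusters of 1 genotype, given here as a description because the clusters may rest on the same accessibility. Among the WT clusters of the Int class, Epor had mean scores of 131 ± 2.89 in C9, 163 ± 8.48 in C11 and 167 ± 1.98 in C6 (SD, n = 3 libraries). The KO clusters C8 and C10 had 133 ± 8.15 and 142 ± 2.22. The values of C9 and C8, the clusters with the most fragments per nucleus of the class, overlapped between the genotypes, whereas all 3 WT libraries of C11 (153 to 168) lay above all 3 KO libraries of C10 (139.6 to 144). The share of all genes that stood apart between such clusters was not computed. In the Late class, the WT cluster C3 had 163 ± 8.47 and the KO cluster C2 had 132 ± 6.05. The 190 shallow WT nuclei in C2 had Epor scores of 71.6, 125 and 142, on both sides of the KO libraries (125 to 137). Within C2 the change was thus 0.28 in place of a negative value, and it did not pass the test (limma adjusted p = 0.672).

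**Figure D2:**
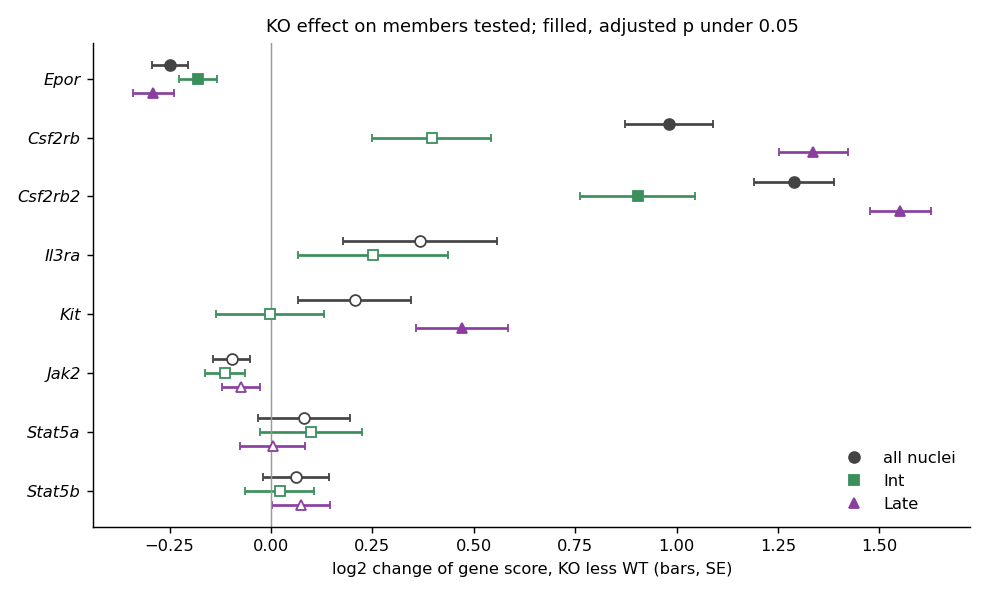
Log2 change of the gene score, KO less WT, of the members tested in all (circles), Int (squares) and Late (triangles) nuclei, with SE bars; filled symbols have an adjusted p under 0.05. Csf2rb and Csf2rb2 lie furthest to the right, with Late changes of 1.34 and 1.55, and Epor is the only member with filled symbols left of 0.

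Csf2rb2 (chromosome 15, 78282507 to 78305721, minus strand) and Csf2rb (78325798 to 78353847, plus strand) lie head to head, with their starts 20.1 kb apart, so they may share part of their fragments and are not independent observations. Csf2rb2 had scores of 10.3, 10.1 and 9.18 in the WT and 24.3, 26.8 and 25.6 in the KO libraries over all nuclei. Csf2rb had 11.4, 11.6 and 10.03 in WT and 21.9, 25.8 and 20.6 in KO. For both genes each KO library was well above each WT library. Csf2rb2 rose 2.59-fold (log2 change 1.29, SE 0.099, limma adjusted p = 2.93e-08). Csf2rb rose 2.07-fold (log2 change 0.98, SE 0.11, adjusted p = 2.43e-06).

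In Late nuclei Csf2rb2 had scores of 11.4, 10.5 and 11.02 in WT and 33.6, 34.0 and 34.7 in KO, and Csf2rb had 12.2, 11.8 and 11.3 in WT and 30.2, 35.0 and 29.0 in KO. The groups were far apart for both genes. Csf2rb2 rose 3.11-fold in Late nuclei (log2 change 1.55, SE 0.075, adjusted p = 5.65e-09), which ranked 52nd from the highest of 15886 genes. Csf2rb rose 2.66-fold (log2 change 1.34, SE 0.086, adjusted p = 6.96e-08) and ranked 78th. In Late nuclei matched on their number of fragments the changes were 1.51 and 1.37, with adjusted p of 1.96e-08 and 7.71e-08.

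In Int nuclei Csf2rb2 passed the test and Csf2rb did not. Csf2rb2 had scores of 8.31, 9.90 and 7.84 in WT and 17.03, 17.98 and 16.2 in KO, with no overlap. It rose 1.96-fold in Int nuclei (log2 change 0.90, SE 0.14, adjusted p = 3.06e-05). Csf2rb had 9.68, 11.5 and 9.07 in WT and 14.5, 14.5 and 11.7 in KO, so the lowest KO library was only just above the highest WT library. Its change of 0.40 (SE 0.15) missed the threshold, with an adjusted p of 0.0588. It passed without WT replicate 2 (0.49, adjusted p = 0.0189) and in matched nuclei (0.42, adjusted p = 0.0382). The Int call of Csf2rb2 held in matched nuclei and was lost among the Int nuclei of cluster C5 alone.

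The difference between the 2 classes was tested within libraries. The Csf2rb effect was larger in Late than in Int nuclei by 0.94 on the log2 scale (SE 0.092, limma adjusted p = 0.032), 1 of 7 members tested and 1 of the 35 genes called among 15873 (0.221%). Its 3 KO libraries lay above the 3 WT libraries in this difference, as did those of Csf2rb2 and Kit, and 23.4% of genes did not overlap. The call for Csf2rb was lost when any 1 library other than WT replicate 3 was left out, with adjusted p of 0.0851 to 0.187, while the difference itself stayed between 0.86 and 1.02. For Csf2rb2 the difference was 0.65 (SE 0.10, adjusted p = 0.0571), past the threshold without WT replicate 3 (0.71, adjusted p = 0.0233). For Kit it was 0.47 (SE 0.12, adjusted p = 0.121).

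Whether 1 of the neighbours changed more than the other was asked with the difference of their log2 values within a library. Over all nuclei Csf2rb less Csf2rb2 averaged 0.14 ± 0.036 in the WT and -0.17 ± 0.13 in the KO libraries (SD, n = 3). A two-sided exact permutation test gave p = 0.1, which 3 libraries against 3 cannot go below, and 0.3 adjusted over 6 tests. In Int nuclei the WT mean was 0.19 ± 0.0050 and the KO mean -0.31 ± 0.11 (exact p = 0.1, adjusted 0.3). In Late nuclei it was 0.093 ± 0.061 and -0.12 ± 0.15 (exact p = 0.2, adjusted 0.4). In Int and in Late nuclei the mean was above 0 in WT and below 0 in KO, and Early nuclei were not tested; with 3 libraries a group no test of this kind can pass 0.05.

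Both genes were followed through the clusters. In the Late class, Csf2rb2 had a mean score of 10.9 ± 0.410 in the WT cluster C3 and 34.4 ± 1.07 in the KO cluster C2 (SD, n = 3). Csf2rb had 11.98 ± 0.479 and 31.6 ± 3.67. The 190 WT nuclei that the authors placed in C2 had Csf2rb2 scores of 12.4, 16.4 and 5.60 and Csf2rb scores of 5.14, 15.5 and 1.32 in the 3 libraries, below every KO library of that cluster (25.8% of genes did not overlap there). These nuclei were shallow, with a median of 1919.5 to 2258.5 fragments against 6091.5 to 6594 in the KO nuclei of C2. In C2 limma called 0 of 17360 genes between the genotypes (2190 genes, 12.6%, had an unadjusted p under 0.05), and the adjusted p was 0.252 for Csf2rb2 and 0.289 for Csf2rb.

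In the Int class, Csf2rb2 had mean scores of 9.72 ± 1.17 in the WT cluster C9, 8.62 ± 1.0005 in C11 and 7.65 ± 0.730 in C6, and 21.5 ± 2.01 and 14.2 ± 0.599 in the KO clusters C8 and C10. All KO libraries of C8 (19.7 to 23.7) and C10 (13.6 to 14.6) lay above all WT libraries of C9 (8.67 to 10.98) and C11 (7.72 to 9.70). Csf2rb had 11.4 ± 1.62 in C9, 9.55 ± 0.506 in C11, 16.7 ± 2.25 in C8 and 11.6 ± 1.64 in C10. The C10 range of Csf2rb (10.2 to 13.4) was just above the C11 range (9.01 to 10.01). How many of all genes stood apart between these clusters was not computed, and the clusters may rest on the same accessibility. In C5, the Int cluster with at least 50 nuclei in every library, Csf2rb2 had scores of 8.63, 10.2 and 11.5 in WT and 18.6, 16.5 and 15.9 in KO, which did not overlap (19.6% of genes did not). Its change of 0.71 (SE 0.26) did not pass the test there (limma adjusted p = 0.273), nor did the other 7 members tested there, and 0.89% of 19438 genes did. Csf2rb2 was the 1 member of C5 with an unadjusted p under 0.05 (0.0196), as had 13.4% of genes.

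**Figure D3:**
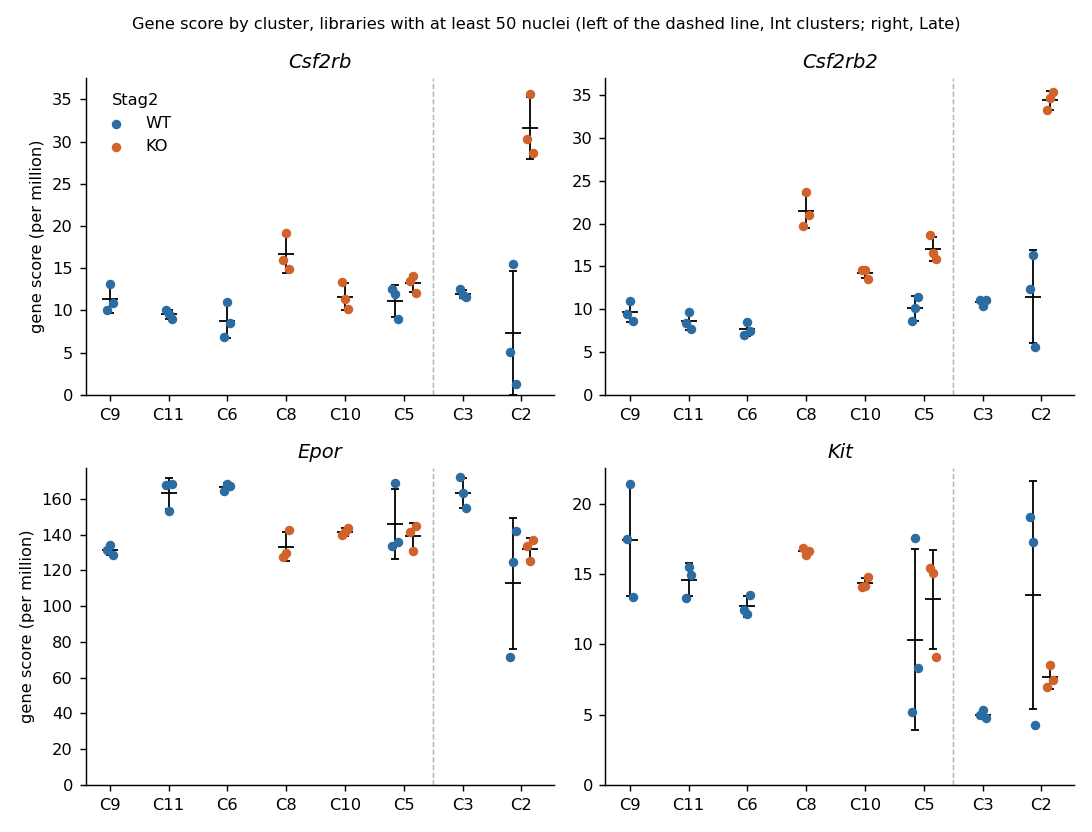
Gene score, scaled to a sum of 1000000 (vertical axes from 0), of Csf2rb, Csf2rb2, Epor and Kit in the clusters with 3 libraries of at least 50 nuclei, Int clusters left and Late clusters right of the dashed line, with 1 point per library and the mean and SD of 3. Csf2rb2 in the KO cluster C2 (33.2 to 35.3) and in C8 (19.7 to 23.7) lies above all WT clusters; the WT values of C2 rest on 58 to 68 nuclei per library.

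Genes beside the pair were higher too. Ncf4, which encodes a subunit of the phagocyte NADPH oxidase and starts 81.0 kb from the Csf2rb start on the side of Csf2rb2, rose by 0.96 in Int (SE 0.10, adjusted p = 1.29e-07) and by 1.15 in Late nuclei (SE 0.082, adjusted p = 1.75e-07) on the log2 scale. Its mean score went from 17.0 to 38.9 in Late nuclei. On the other side, Tst and Mpst, sulfur transferase genes that start 80.1 and 80.9 kb away, had Late changes of -0.12 (adjusted p = 0.048, libraries overlapping) and -0.11 (adjusted p = 0.0521). Between them and Csf2rb, Tex33 had a Late change of 0.33 (adjusted p = 0.0138). Of the 22 other genes tested within 500 kb of the Csf2rb start, 19 were higher and 1 was lower in Late nuclei, with a median of 0.44, beside 32.9% and 18.5% of all genes. In Int nuclei 9 of these 22 were higher and 13 missed the threshold, beside 12.7% of all genes higher in Int nuclei. Genes this near may share signal, so their number does not count separate changes. Further out on the side of Ncf4, the apolipoprotein L gene Apol11b, 683 kb away, went from 30.6 to 129 in Late nuclei (log2 change 2.05, adjusted p = 2.75e-10).

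**Figure D4:**
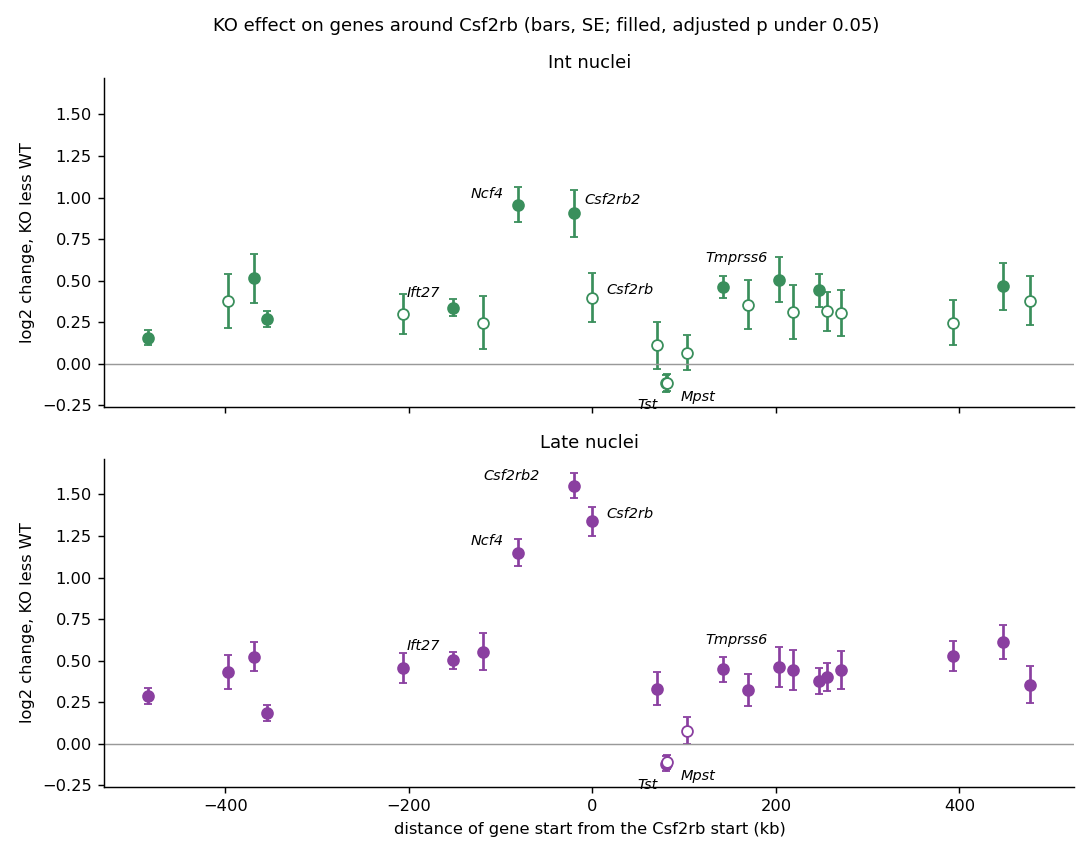
Log2 change of the gene score, KO less WT, of the genes tested within 500 kb of the Csf2rb start, against the distance of their starts in kb, in Int (upper) and Late nuclei (lower), with SE bars and filled symbols for an adjusted p under 0.05. Ncf4, Csf2rb2 and Csf2rb form the peak in Late nuclei (1.15, 1.55 and 1.34), most other genes lie between 0.18 and 0.61, and Tst and Mpst lie below 0.

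The alpha chains had low scores. Il3ra (chromosome 14, 14346495 to 14355490, plus strand) had scores of 5.24, 8.71 and 5.11 in WT and 11.6, 8.21 and 5.87 in KO over all nuclei, and the groups overlapped. Its change of 0.37 (SE 0.19) did not pass the test (limma adjusted p = 0.119). It passed without WT replicate 2 (0.58, adjusted p = 0.00814) and without KO replicate 3 (0.58, adjusted p = 0.0159). From Int to Late Il3ra moved by -1.92 ± 0.33 in WT and -1.88 ± 0.48 in KO on the log2 scale (SD, n = 3), and in Late nuclei it was under the filter. In Early nuclei it had scores of 31.9, 31.7 and 18.1 in WT and 49.5, 32.9 and 48.0 in KO, where the groups did not overlap and 3 of the 6 libraries had 16 to 25 nuclei. The share of all genes that did not overlap in Early nuclei was not computed. The 310 Early nuclei of KO replicate 1 outnumbered those of any other library, and that library also had the highest Il3ra score over all nuclei. Il3ra did not pass in a fit of Int and Late nuclei only, an alternative chosen after seeing the data. The part of the Early nuclei in the score of KO replicate 1 was not tested. Csf2ra (chromosome 19, 61224402 to 61228418, minus strand) was under the filter in every fit, with scores of 2.89 to 3.55 in WT and 3.49 to 3.92 in KO over all nuclei. Zfp950, the 1 tested gene within 100 kb of Csf2ra, was higher in Late nuclei (0.16, limma adjusted p = 0.0374).

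Kit (chromosome 5, 75574987 to 75656722, plus strand) had scores of 8.96, 13.4 and 10.3 in WT and 14.9, 12.1 and 10.9 in KO over all nuclei, with overlap, and its change of 0.21 (SE 0.14) did not pass the test (limma adjusted p = 0.226). It passed without WT replicate 2 (0.35, adjusted p = 0.0289). In Int nuclei the groups overlapped, at 13.9, 17.6 and 14.1 in WT and 15.6, 15.7 and 14.002 in KO. In Late nuclei they were 5.36, 5.66 and 4.81 in WT and 6.83, 8.62 and 7.71 in KO, and every KO library lay above every WT library. Kit rose 1.46-fold there (log2 change 0.47, SE 0.11, adjusted p = 0.00373). The call ended under quantile normalization (0.10, adjusted p = 0.487) and cyclic loess (0.10, adjusted p = 0.506). The 3972 genes with the lowest scores, among them Kit, had a median change of 0.33 in Late nuclei, and 57.3% of them were higher.

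Markers of other cells were counted in Late nuclei, where 32.9% of all genes and 57.3% of the 3972 genes with the lowest scores were higher. Of 9 mast cell and basophil markers, 6 were under the filter, 2 of the 3 tested were higher and 0 were at 0, with a summed score of 38.2 to 40.3 in the WT and 48.0 to 51.5 in the KO libraries. Of the 9 stem and progenitor markers, 4 of the 6 tested were higher and 1 was lower, with sums of 57.0 to 66.8 in WT and 73.8 to 79.5 in KO. Of 11 granulocyte and monocyte markers, 3 of the 7 tested were higher, with sums of 74.8 to 84.3 and 95.2 to 99.6. Of 8 macrophage markers, 2 of the 3 tested were higher, with sums of 40.1 to 41.5 and 51.0 to 52.5. Of 10 lymphoid markers, 2 of the 4 tested were higher, with sums of 67.8 to 74.9 and 84.7 to 89.4. The sums of these 5 lists were higher in every KO library than in any WT library. Of single genes 59.5% did not overlap, in either direction, which is not a like measure for a sum. The median change was 0.33 among the 3972 genes with the lowest scores. Prss34 (17.1 in WT and 16.6 in KO) and Cd79a (29.7 and 29.2), large parts of the mast cell and the lymphoid sum, were not called. Of 9 megakaryocyte markers, 2 of the 5 tested were higher and 2 were lower, and the sums overlapped (273 to 316 and 305 to 321). Cma1, S100a9 and Cd163, which are among the markers counted as higher, passed the filter at 5 only through the KO libraries, so the counts are partly set by the filter. The part of these lists in the Kit and beta chain results was not tested.

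Kit and the Stat5 genes had their highest scores in Early nuclei. The Kit scores in Early nuclei were 61.0, 67.0 and 49.7 in WT and 66.1, 64.5 and 59.5 in KO, above the Int score of the same library in all 6. From Int to Late it moved by -1.36 ± 0.13 in WT and -0.89 ± 0.17 in KO on the log2 scale (SD, n = 3), down in 6 of 6 libraries. The classes may rest on the same accessibility, so these steps are a description. They also differed in depth, with median fragments per library of 38126 to 53468 in Early, 10121 to 14998 in Int and 5693 to 6812 in Late nuclei. In Int nuclei every KO library was deeper than every WT library. Over the 15873 genes tested in both classes the median step was -0.080 in WT and -0.087 in KO. Over the 19465 genes tested in Int nuclei it was -0.21 in WT and -0.21 in KO. Csf2rb and Csf2rb2 went the other way, by 0.21 ± 0.15 and 0.31 ± 0.20 in WT and by 1.15 ± 0.13 and 0.96 ± 0.089 in KO, rising in 6 of 6 libraries. Jak2 also rose in 6 of 6 libraries, by 0.11 ± 0.059 in WT and 0.15 ± 0.047 in KO.

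Jak2 (chromosome 19, 29251803 to 29313080, plus strand) had scores of 142, 138 and 148 in WT and 125, 136 and 138 in KO over all nuclei. Every KO library lay below every WT library, by little between KO replicate 3 and WT replicate 2. Its change of -0.097 (SE 0.046) did not pass the test (limma adjusted p = 0.0911), nor did those of -0.11 in Int (adjusted p = 0.112) and -0.074 in Late nuclei (adjusted p = 0.188), where the groups did not overlap either. Jak2 passed the threshold under median centring, with -0.24 (adjusted p = 0.018), -0.29 (0.0395) and -0.14 (0.0371). Insl6, an insulin-like peptide gene that starts 73.5 kb from the Jak2 start, rose by 0.48 over all nuclei (adjusted p = 4.64e-06) and by 0.72 in Late nuclei (adjusted p = 1.97e-06).

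Stat5b (chromosome 11, 100780731 to 100850585, minus strand) and Stat5a (100859351 to 100885169, plus strand) are also a head-to-head pair. Their starts lie 8.77 kb apart by these positions. RefSeq places the Stat5b start at 100859004, much nearer to the Stat5a start. These genes may therefore share part of their fragments and are not independent observations. Stat5a had scores of 19.1, 22.1 and 16.3 in WT and 23.3, 18.8 and 18.8 in KO over all nuclei. Stat5b had 35.8, 38.3 and 31.5 in WT and 40.9, 35.7 and 33.7 in KO. The groups overlapped for both. The changes were 0.082 (SE 0.11, limma adjusted p = 0.56) and 0.061 (SE 0.082, adjusted p = 0.541). In Late nuclei the mean scores were 16.6 ± 0.423 in WT and 16.6 ± 0.913 in KO for Stat5a and 33.4 ± 0.561 and 35.2 ± 3.19 for Stat5b (SD, n = 3). The sign of the Stat5a change turned under several settings in all, Int and Late nuclei, and that of Stat5b in all and Int nuclei. No direction is given for these. The Late Stat5b change stayed between 0.0093 and 0.14 over 17 alternatives and passed the test in none of them. Under quantile normalization Late Stat5a passed the threshold as lower (-0.25, limma adjusted p = 0.023). The difference of the pair, Stat5a less Stat5b, moved by 0.020, 0.078 and -0.070 between WT and KO in all, Int and Late nuclei (exact permutation p = 0.9, 0.5 and 0.6; adjusted over the 6 tests 0.9, 0.72 and 0.72).

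The Stat5 genes also varied among the Int clusters. Stat5a had mean scores of 33.5 ± 2.60 in the WT cluster C9 and 31.2 ± 4.19 in the KO cluster C8, against 16.8 ± 1.97 in C11, 16.2 ± 1.42 in C10 and 13.4 ± 0.883 in C6 (SD, n = 3). Stat5b had 50.2 ± 5.56 in C9 and 46.2 ± 3.31 in C8, against 31.1 ± 1.55 in C11, 28.9 ± 1.17 in C10 and 26.8 ± 1.73 in C6. In Early nuclei Stat5a scored 64.7, 67.1 and 58.0 in WT and 65.0, 49.4 and 51.5 in KO. C9 and C8 are the deepest Int clusters, with medians of 16659 to 19427.5 fragments per library in C9 and 20901 to 21520 in C8. Of the tested genes that start within 100 kb of the Stat5 genes, Kcnh4, a potassium channel gene, and Hcrt, the hypocretin gene, were lower in Late nuclei (-0.36 and -0.59, adjusted p = 0.00106 and 5.02e-05), Ghdc was higher (0.43, adjusted p = 0.0151), and Stat3 was not called (0.053, adjusted p = 0.304).

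Early nuclei are given as values only, because 3 libraries held 16 to 25 of them. The share of all genes whose libraries stood apart was 37.3% in Int and 59.5% in Late nuclei and was not computed in Early nuclei. Whether the separations below exceed the share in Early nuclei is therefore unknown. Epor scored 109.9, 106 and 105 in WT and 95.0, 94.5 and 69.5 in KO, with every KO library below every WT library. Csf2rb2 scored 7.07, 8.01 and 2.97 in WT and 15.5, 17.1 and 15.1 in KO, and Csf2rb 11.9, 10.7 and 9.04 in WT and 19.6, 15.8 and 41.0 in KO, with every KO library above. Jak2 (90.8 to 107 in WT, 94.8 to 109.9 in KO) and Stat5b (88.2 to 94.5 and 75.4 to 92.1) overlapped between the genotypes.

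The rest of the pathway was counted from lists chosen with earlier results of these data known, and the genes named from them were picked after their values were seen. Of the 8 other JAK and STAT genes, 2 were higher in Late nuclei and 6 missed the threshold. They were Jak3, the kinase of the common gamma chain receptors (0.24, limma adjusted p = 0.013), and Stat6, the factor of IL-4 signalling (0.18, adjusted p = 0.0188). The median of the 8 was 0.10, beside 0.052 for all genes. Of 17 other receptor genes tested in Late nuclei 5 were higher and 5 were lower, beside 32.9% and 18.5% of all genes, with a median of 0.12. Il2rb, 1 of the 5 higher (0.32, adjusted p = 0.0115), starts 169 kb from Csf2rb and was also counted among the genes around it. Receptor genes that lie near each other may share signal, so these counts need not be of separate changes. Il6ra, the IL-6 receptor alpha chain, went from 6.30 to 11.4 (log2 change 0.76, adjusted p = 9.21e-05). Il10rb, Ifnar2 and Ifnar1, chains of the IL-10 and type I interferon receptors, were lower, with log2 changes of -0.34, -0.28 and -0.18 (adjusted p = 0.000156, 0.000374 and 0.00388).

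Beyond the receptor, 8 of 18 genes that carry the signal on were higher in Late nuclei and 4 were lower, beside the same 32.9% and 18.5% of all genes, with a median of 0.17 beside 0.052. Vav1, a guanine nucleotide exchange factor of blood cells, rose by 0.80 (adjusted p = 5.63e-06), and Lyn, a Src family kinase tied to EPOR signalling, rose by 0.73 (adjusted p = 8.4e-05), although with mean scores of 4.76 in WT and 8.56 in KO it passed the filter only through the KO libraries. Pik3r1, the regulatory subunit of PI3 kinase, fell by 0.37 (adjusted p = 1.34e-05), whereas the catalytic subunit gene Pik3cd rose by 0.55 (adjusted p = 0.00039). Of 14 attenuators tested, 6 were higher and 1 was lower in Late nuclei, or 7 in either direction beside 51.4% of all genes, with a median of 0.11 beside 0.052. These included Socs1 and Socs3, inhibitors of JAK kinases, at 0.79 each (adjusted p = 1.79e-06 and 8.55e-07), Sh2b3, the adaptor that restrains JAK2, at 0.58 (adjusted p = 2.11e-06), and Cish, a STAT5 target, at 0.46 (adjusted p = 3.58e-05). Among 5 ligand genes tested, Il5 (0.71, adjusted p = 1.96e-05) and Csf2, the GM-CSF gene (0.42, adjusted p = 0.0106), were higher, and Epo was not called (0.066, adjusted p = 0.204).

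The genes with the most similar pattern over the 12 library-by-class values (6 libraries, Int and Late) were sought among the 15873 genes tested in both classes, leaving out those within 1 Mb of the member. The measure was the root mean square difference of log2 values, each gene centred on its mean. Nearest to Epor were Ifnar2 (0.028) and Svbp (0.034), and nearest to Jak2 were Nufip2 (0.032) and Mir7036b (0.032). Nearest to Kit were Fam196b (0.076) and Chn2 (0.10). The beta chain genes had no such close match, with Mir546 (0.19) and Mir26a-2 (0.20) nearest to Csf2rb and Gm11201 (0.13) and Mir546 (0.15) nearest to Csf2rb2. Csf2rb and Csf2rb2 differed from each other by 0.21 on this measure, which made Csf2rb2 the 4th nearest gene to Csf2rb and Csf2rb the 6th nearest to Csf2rb2 with near genes counted. Stat5a and Stat5b differed by 0.18, which placed Stat5b 2336th from Stat5a and Stat5a 5079th from Stat5b. Tnfaip3 (0.053) and Igf2bp1 (0.055) were nearest to Stat5a, and Mir7011 (0.055) and Hsbp1l1 (0.056) to Stat5b. All points come from the same 6 libraries, and the measure is a description.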

How the data were processed

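The 6 ATAC libraries (WT and KO, 3 each) of Ter119+ erythroblasts come from single-nucleus multiome data. Cell Ranger and the mm10 build are named in the submitters' processing notes. The software and weights behind the gene score are not given in the sources used here. The deposited gene score is a normalized accessibility signal, and each nucleus sums to between 9999.855 and 10000.12 over 24333 genes. The deposited table of nuclei gives fragment counts (at least 1000 per nucleus), doublet scores, classes and clusters as the authors assigned them. Columns were tied to samples by library name.

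For each library the mean score over its nuclei was taken, rescaled to sum to 1000000, filtered at a mean of 5 and taken as log2 of the score plus a pseudocount of 1, which understates changes of low genes. Fold changes are ratios of group means. KO and WT were compared with limma 3.58.1 (R 4.3.3; variance trend, two-sided) over all genes with Benjamini-Hochberg adjustment at 0.05. The Late and Int effects were compared on differences within libraries. The pairs of neighbours were compared by exact permutation. Tables and figures used Python 3.11.15, pandas 2.3.3, scipy 1.17.1 and matplotlib 3.10.9. Libraries held 46782673 to 66286151 fragments. No doublets were removed beyond what the authors did, and leaving out the top doublet scores was an alternative.

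The rule for named genes took the 9 members, the tested genes that start within 100 kb of one, and for each member the 2 genes with the most similar pattern; the pathway genes named, and those over 100 kb from Csf2rb, were chosen after their values were seen. The members and lists were chosen with earlier results of these data known. Alternatives covered pseudocount, filter, scaling, variance trend, replicate block, nuclei matched on fragments, doublets, cluster C5 and each library left out. Over all nuclei, fits of Int and Late nuclei only, and of these classes weighted equally, were added after seeing the data.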

Additional observations from a re-analysis of the deposited data

Results flagged for a closer look

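The effect of the Stag2 deletion on the Csf2rb score differed between Late and Int nuclei by 0.94 on the log2 scale, by a test of the difference itself within libraries (limma adjusted p = 0.032, KO above WT in all libraries). Mean Csf2rb scores were 11.8 in WT and 31.4 in KO in Late nuclei and 10.1 and 13.6 in Int nuclei. Leaving out any 1 library other than WT replicate 3 moved the adjusted p to between 0.0851 and 0.187, with differences of 0.86 to 1.02.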

How the results depend on the processing

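The Late calls of Epor, Csf2rb and Csf2rb2 and their calls over all nuclei held under every alternative run (17 to 19 each). For the beta chain genes in Late nuclei the filter at 20 is no support, since they pass it only through the KO libraries. With a filter at a mean of 20, 4244 genes were called over all and 4560 in Late nuclei, from 7661 and 8161, and 1 member was called over all and 1 in Int nuclei, since fewer genes were tested. That filter moved the share of calls that were higher to 44.7% over all, 53.9% in Int and 41.0% in Late nuclei; fits without a variance trend gave 77.2% over all and 81.1% in Int nuclei, and no filter gave 74.8% in Late nuclei. Without a variance trend 1921 genes and 1 member were called in Int nuclei, from 3858 and 2. Among the Int nuclei of cluster C5 alone (C5 below), 171 genes and 0 members were called; with all nuclei of that cluster 173 genes were. Leaving out 1 library gave 5355 to 8440 genes and 3 to 5 members over all nuclei, 2547 to 4782 genes and 1 to 4 members in Int nuclei, and 6616 to 7892 genes and 4 members in Late nuclei. The highest member counts came without WT replicate 2, the lowest Int gene count without KO replicate 1 and the lowest Int member count without KO replicate 2.

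For the difference between Late and Int effects, 35 genes and 1 member became 0 to 819 genes and 0 to 2 members with 1 library left out (819 without WT replicate 3), 199 genes and 2 members under quantile normalization, and, in 2 alternatives chosen after seeing the data, 1017 genes and 2 members with the trend on the mean level and 206 genes without a trend. The cause was not tested.

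Signs turned for small changes. Over all nuclei, Kit was -0.075 under quantile normalization and -0.041 under cyclic loess; Stat5a was -0.17, -0.12 and -0.064 under quantile, loess and median centring, -0.023 without WT replicate 3 and -0.015 without KO replicate 1; Stat5b was -0.022, -0.0014, -0.084, -0.014 and -0.016 in the same order, and -0.011 in matched nuclei. In Int nuclei Kit was 0.10 without WT replicate 2, 0.047 without KO replicate 3 and 0.45 in C5. Int Stat5a was -0.11, -0.057 and -0.077 under the 3 scalings, -0.055 without WT replicate 3 and -0.18 in C5. Int Stat5b was -0.082, -0.053 and -0.16 under them, -0.031 in matched nuclei, -0.085 without WT replicate 3, -0.0020 without KO replicate 1 and -0.11 in C5. In Late nuclei Stat5a was -0.25 (limma adjusted p = 0.023), -0.19 and -0.060 under them, -0.0071 in matched nuclei, -0.0032 without the highest doublet scores, -0.016 without WT replicate 3 and -0.039 without KO replicate 3. In the Late less Int difference, Stat5b was -0.018 without WT replicate 2 and Stat5a 0.040 without WT replicate 3. With 1 library left out the highest values were 0.19 (Stat5a) and 0.12 (Stat5b) over all nuclei, 0.22 and 0.092 in Int nuclei, and 0.026 for Late Stat5a, and the difference ranged down to -0.21 for Stat5a and up to 0.15 for Stat5b.

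Same-numbered WT and KO libraries had correlated deviations of -0.12, -0.27 and 0.21 over all, 0.13, -0.084 and 0.19 in Int and 0.087, 0.045 and 0.051 in Late nuclei, not above 0.1 in every pair, so the numbers were not taken to pair them. In Late nuclei each library correlated best with its own number, a hint from the data and not the design. With the replicate block 7470, 4527 and 7982 genes were called in all, Int and Late nuclei and 12 in the Late less Int difference. Members called were 4, 3, 4 and 1, with Il3ra over all (adjusted p = 0.0192) and Csf2rb in Int nuclei (0.0371) added.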
